A study of Drosophila melanogaster with 5 samples.

Results

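The subject here is a set of anti-MLE peak regions on the gene-rich part of the X chromosome. They were called in both control libraries of the youngest female Drosophila melanogaster embryos. Peaks of all 5 lists that shared at least 1 bp were merged, which gave 2263 regions. A region was kept where it lay on X, began below 20500000 on the dm6 assembly and held a peak from each of the 2 lists of 0-2 h control embryos. This left 227 regions. The same stretch of X held 519 regions in all, of which 206 were called in 0-2 h replicate 2 and not replicate 1, 7 in replicate 1 and not replicate 2, and 79 in neither. The regions were thus chosen by the calls of the 0-2 h lists, and calls and ranks in those lists are given as a description. Calls in the other 3 lists were not required, but their peaks entered the merge and could join neighbouring peaks. Without 2-4 h replicate 2 in the merge the number was 231.

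All libraries were made from female embryos by CUT&RUN with rat anti-MLE, a method in which a nuclease tethered to the antibody releases the DNA around the bound protein. The 4 control libraries came from mothers carrying the maternal germline driver MTD-GAL4 and a GFP RNAi hairpin, 2 at 0-2 h, before the maternal-to-zygotic transition, and 2 at 2-4 h, when it has passed. The fifth library was of 0-2 h embryos whose MTD-GAL4 mothers carried a CLAMP RNAi hairpin (clampRNAi), so the depletion is of maternal CLAMP. The crosses of every group used males with a meiotic drive system, whose sperm carry X and not Y. The lists hold no RNA, so the depletion of CLAMP was not checked.

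MLE (Maleless) is an RNA and DNA helicase. In males it joins the MSL proteins and the roX RNAs in the complex that raises transcription of the single X, and in both sexes it is known as a chromatin and RNA-processing factor outside that complex. CLAMP is a zinc finger protein that binds GA repeats and recruits the MSL complex to X in males. In females the MSL complex is not assembled, because Sxl blocks production of MSL2. The maternal-to-zygotic transition is the handover of gene control from RNAs and proteins laid down in the egg to the genome of the embryo.

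The lists held 723 and 1247 peaks at 0-2 h (replicates 1 and 2), 370 and 1589 peaks at 2-4 h, and 493 peaks after clampRNAi. Library depth is unknown. The authors' signal therefore served to rank each peak against the others of its own list. The rank is given as a percentile, with 100 for the highest total signal, and percentiles from lists of different length show no change. The list of 2-4 h replicate 2 stood apart, with a median peak width of 2190 bp against 81.0 to 110 bp in the other 4. The number of peaks identical in start and end between any pair of lists was 22 at most, and 0 of them had the same total signal.

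The leading region lay inside up, which encodes troponin T of the muscle thin filament (X:13593785-13594319). Its percentile was 99.6 and 97.4 at 0-2 h, 99.2 and 96.1 at 2-4 h and 99.2 with clampRNAi. It was near the top of every list. Its peak was 160 bp wide in 0-2 h replicate 1, 532 bp in replicate 2, 164 and 166 bp at 2-4 h and 165 bp with clampRNAi. The next region lay inside SK, which encodes a potassium channel opened by calcium (X:5348316-5350562), at percentiles of 99.2, 97.1, 98.9, 96.3 and 98.8 in the same order of lists. The authors' maximum signal there was 11293, 19339, 9411, 10658 and 6392, in a peak of 97 to 151 bp except in 2-4 h replicate 2, where it was 2247 bp. A region inside br (X:1625356-1626001) followed, at 99.0, 95.7, 97.8, 94.7 and 98.4. The gene br encodes the Broad zinc finger proteins of the ecdysone response, and its extent lies within that of the mucin-related gene Mur2B.

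All 12 leading regions were called in all 5 lists, and 2 of them lay between coding genes. One was 1946 bp from Caf1-180, a chromatin assembly factor gene, at percentiles of 98.9, 95.4, 98.4, 93.7 and 98.2. The other was 195 bp from CG12115, at 98.5, 94.6, 97.3, 92.6 and 97.8. The remaining leading regions lay inside Ten-a, Gmap, rdgA, ctp, kairos, rg and CG42340. Ten-a encodes a teneurin of synaptic partner matching, Gmap a Golgi-associated coiled-coil protein, rdgA an eye diacylglycerol kinase, ctp a dynein light chain and rg an anchor protein for protein kinase A. Their lowest percentile in any list was 82.7, for rg in 2-4 h replicate 2, and the 12 mean percentiles over the 0-2 h controls ran from 92.5 to 98.5.

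**Figure D1:**
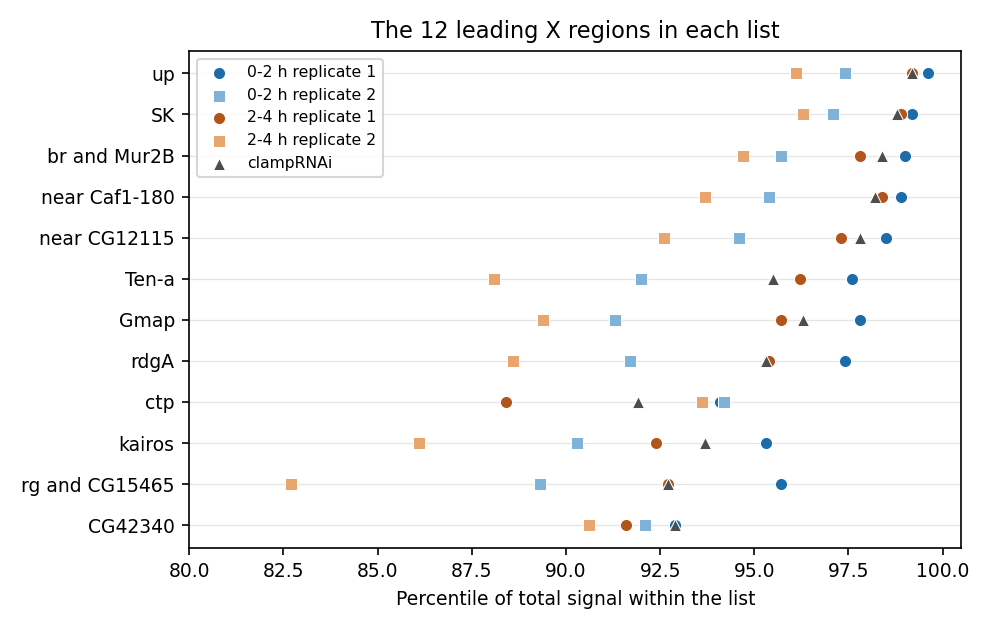
The 12 X regions of highest mean percentile over the 0-2 h controls, named by the gene they lie in or near (rows), against the percentile of total signal within each list (x axis, 80 to 100; one marker per list). In 11 of the 12 rows the lowest value is that of 2-4 h replicate 2; at ctp the lowest is 2-4 h replicate 1, at 88.4.

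Along X the regions were spread over the whole stretch and did not lie at even distances. There were 227 in 20.5 Mb, which is 11.1 per Mb. Regions called in both 0-2 h controls numbered 265 on the 4 large autosomal arms taken whole, or 2.43 per Mb, with 1.87 on 2L, 2.69 on 2R, 2.03 on 3L and 2.99 on 3R. Each of the 20 full Mb windows on X held at least 1 region, with a median of 9. The sparsest was the first, with 1 region beside 86 coding genes, and the densest was the window from 5 to 6 Mb, with 22 regions beside 95 coding genes.

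The median gap between neighbouring regions was 44.2 kb (95% binomial interval of the median 39.2 to 57.0, 226 gaps), and the central gaps ran from 17.8 to 114 kb (interquartile range). Gaps of 20 kb or less made up 26.5% and gaps over 200 kb 12.4%. The closest pair, 0.560 kb apart, lay in rg (X:5105296-5105786 and X:5106347-5106479). The widest gap, 575 kb, ran from a region in CG32809 (X:1679623-1679733) to one in CG3078 (X:2254529-2256083). On X the first region lay 4756 bp from sdk, a cell adhesion gene (X:681125-682078), and the last in RhoGAP19D (X:20497661-20497774).

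**Figure D2:**
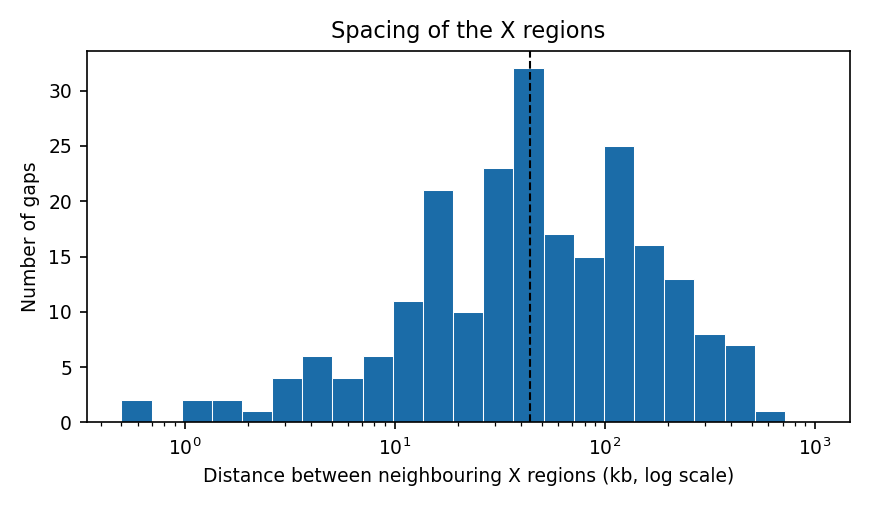
Distance between neighbouring X regions (x axis, kb, log scale) against the number of gaps (y axis); the dashed line is the median of 44.2 kb. Most of the 226 gaps lie between 10 and 200 kb, with a tail of 17 gaps of 5 kb or less.

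With neighbours no more than 20 kb apart joined into runs, 121 regions stood alone and 106 fell into 46 runs of 2 or more. The longest run held 6 regions over 39.1 kb (X:4000200-4039349), and none of them overlapped a coding gene. They lay 28850 to 46783 bp from the nearest coding gene, CG6414 or CG43689, and 2 of the 6 were called in all 5 lists. The runs of 4 lay in br (39.5 kb) and in rg (27.0 kb). At the bound of 20500000 the last 2 regions inside had percentiles of 89.2 and 90.7 in 0-2 h replicate 1. The first 2 outside (X:20550738-20551085 and X:20863659-20864807) had 8.16 and 71.2.

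Most regions lay inside genes, as did most bases of the stretch, and mainly inside long ones. Of the 227 regions, 184 overlapped the extent of a protein-coding gene (81.1%, Clopper-Pearson 95% interval 75.3% to 85.9%), where such extents covered 76.5% of the stretch. The interval takes in that share. A wide region can also reach a gene by its width, so the share of single bases is not a like measure. The midpoint of the maximum lay within 500 bp of an annotated end of a coding gene in 17 regions, 7.49% (4.42% to 11.7%), while 15.1% of bases did. It lay farther inside a coding gene in 170 regions, 74.9% (68.7% to 80.4%), against 65.6% of bases, and farther outside in 40, 17.6% (12.9% to 23.2%), against 19.3%. Of the 43 regions outside coding genes, 3 overlapped another annotated gene, and the median distance to the nearest coding gene was 4785 bp, with 12 over 10 kb away. Strand, exons and introns were not used here.

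The 184 regions fell in 129 coding genes, which is 6.26% of the 2060 coding genes on the stretch. The median length of genes with a region was 26748 bp, and of genes without one 2354 bp. In the longest 25% of genes by extent 21.6% held a region, and in the 3 other groups of equal number 0.583%, 1.36% and 1.55% from shortest to longest. A longer extent offers more room for a region, so density was set beside these shares. Per Mb of sequence, the longest 25% of genes held 13.4 regions, the other coding genes alone 3.46 and the sequence outside coding genes 9.35.

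One region was found in 92 genes, 2 regions in 20 genes and 3 or more in 17 genes. The highest counts were 7 regions in rg and 7 in Mur2B, of which 6 lay in br. The extent of rg, 169 kb, is the same in the gene table as that of CG15465, so the 7 regions count under both names. There were 5 regions each in Ten-a (292 kb), kirre (394 kb), dnc (167 kb) and mamo (144 kb), and 4 in Neto (81.4 kb). The spread within these genes was wide. Mean percentiles over the 0-2 h controls ran from 35.7 to 92.5 in rg, from 38.3 to 94.8 in Ten-a and from 20.5 to 71.0 in mamo, whose zinc finger product is required for germ cell development.

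Gene groups were read against the same backgrounds, 6.26% of all coding genes and 21.6% of the longest 25%, and calls in all 5 lists against 48.0%, the share over the 227 regions. That 25% has a median extent of 14235 bp, while listed genes with a region reach 394 kb (kirre), so length is not matched. Of the listed genes in it, 50.0% (ion channel), 46.7% (synapse), 42.9% (muscle), 41.2% (transcription factor) and 26.3% (adhesion) held a region. Each group is a hand-written list and does not hold every gene of its kind. OtopLa, a proton channel gene outside the ion channel list, held a region, for example. Among the 18 listed ion channel genes on the stretch, 6 held a region, all of them among the 12 in the longest 25%. They held 12 regions, 7 of them called in all 5 lists. The 3 regions in SK stood at mean percentiles of 98.1, 50.4 and 51.4. Sh, the Shaker potassium channel gene, also held 3. At its first (X:17947059-17949144) the percentiles were 76.3 and 76.8 at 0-2 h, 64.1 and 60.3 at 2-4 h and 67.1 after clampRNAi. Its second (X:17995053-17995762) was called at 0-2 h, at 43.3 and 51.4, and after clampRNAi, at 17.0, and in neither 2-4 h control.

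The voltage-gated sodium channel gene para held one region called in all 5 lists (X:16522564-16523653), at 84.0, 83.0, 78.9, 74.1 and 79.5. Its other region (X:16476687-16476765) was called at 0-2 h only, at 1.94 and 46.4. The acetylcholine receptor gene nAChRalpha3 had the same kind of pair, one region at 66.5 and 60.3 that was also called in 2-4 h replicate 1 and clampRNAi, and one at 3.60 and 33.4 called in the 0-2 h controls alone. In both genes the region called in the 0-2 h controls alone was the lower ranked of the pair in each of those lists. Hk, the beta subunit of the Shaker channel, and Ca-alpha1T, a T-type calcium channel gene, held 1 region each, called in all 5 lists.

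Of 20 cell adhesion and axon guidance genes, 5 held a region: Ten-a, kirre, DIP-alpha, dpr8 and kek5. All 5 were among the 19 in the longest 25%, and 26.3% of those 19 held a region, beside 21.6% of that background. They held 15 regions, of which 10 were called in all 5 lists, beside the 48.0% over all regions. In kirre, an immunoglobulin adhesion gene of myoblast fusion, the first region (X:2839923-2840009) stood at 73.6, 78.9, 50.3, 53.6 and 65.5, and 4 of its 5 regions were called in all 5 lists. DIP-alpha and dpr8 encode members of interacting families of neuronal surface proteins. The leading region of DIP-alpha (X:3553526-3554734) stood at 86.7, 87.2, 78.1, 78.1 and 84.0, and that of dpr8 (X:14384439-14385734) at 81.7, 83.1, 63.0, 67.0 and 73.8.

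Of 28 patterning and developmental transcription factor genes, 7 held a region, all of them among the 17 in the longest 25%, with 17 regions in all, 8 of them called in all 5 lists. These were br, mamo, disco-r, Sp1, acj6, lz and sd. In br, 4 of 6 regions were called in all 5 lists. In lz, the Runx gene of blood and eye cells, the region (X:9291230-9291568) stood at 70.3, 75.7, 56.5, 48.1 and 65.7. In acj6, a POU gene of olfactory neurons, the region was called at 0-2 h only, at 15.5 and 33.0. The other listed genes held none, among them the segmentation genes btd and gt and the neural genes sc and vnd. Over all coding genes outside the longest 25%, the share with a region was 0.583% to 1.55% by length group.

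The synapse and neuronal signalling list had 8 of 17 genes with a region, 7 of them among the 15 in the longest 25%. It held 23 regions, 7 of them in rg and 5 in dnc. Of the 23, 9 were called in all 5 lists, beside the 48.0% over all regions, and the difference was not tested. Its genes with a region included dnc (167 kb) and rut (38.6 kb), which act in cyclic AMP breakdown and synthesis. In dnc, the cyclic AMP phosphodiesterase gene of learning, 2 of 5 regions were called in all 5 lists, the higher ranked (X:3246973-3248753) at 82.7, 83.3, 75.1, 69.5 and 80.1. In rut, the adenylyl cyclase gene, the single region (X:14809187-14809744) stood at 69.6, 72.2, 40.0, 42.6 and 57.6. Of 10 muscle and cytoskeleton genes 4 held a region each: up, wupA (troponin I), bif and Act5C. Of the 7 in the longest 25%, 3 did, and 1 of the 4 regions was called in all 5 lists. The wupA region stood at 38.3 and 52.4 at 0-2 h and was called in 2-4 h replicate 1, at 4.86, and clampRNAi, at 21.1.

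None of the 4 listed genes of dosage compensation and sex on the stretch, roX1, roX2, mof and Sxl, held a region. Over all coding genes on the stretch 6.26% held one. In the group of longest genes, which takes in 1 of the 4, 21.6% did. With shares this low, a list of 4 genes is too short to tell their lack of a region from the background. The shares are of coding genes, while roX1 and roX2 are the genes of the roX RNAs. The nearest to roX1 lay in CG42541 (X:3899485-3900427), 36.8 kb away, and the nearest to roX2 in CG43155 (X:11476140-11476477), 103 kb away. The CG43155 region was called in all 5 lists, at 84.9, 86.4, 74.6, 73.8 and 81.5. The CG42541 region was called in 3, at 30.6 and 57.9 in the 0-2 h controls and 4.78 in 2-4 h replicate 2.

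Peaks at these regions were narrow in 4 of the 5 lists. The median width was 75 bp in 0-2 h replicate 1 and 86.0 bp in replicate 2, 77.5 bp in 2-4 h replicate 1 and 74.5 bp with clampRNAi. In 2-4 h replicate 2 it was 740 bp. Peaks narrower than the sequenced read of 150 bp made up 79.7%, 76.2%, 85.2%, 24.2% and 82.6% in the order of 0-2 h, 2-4 h and clampRNAi. In all merged regions the shares were 58.3%, 57.5%, 73.0%, 6.86% and 68.9%. The autosomal arm regions called in both 0-2 h controls had median widths of 74.0 bp and 90.0 bp in those lists.

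**Figure D3:**
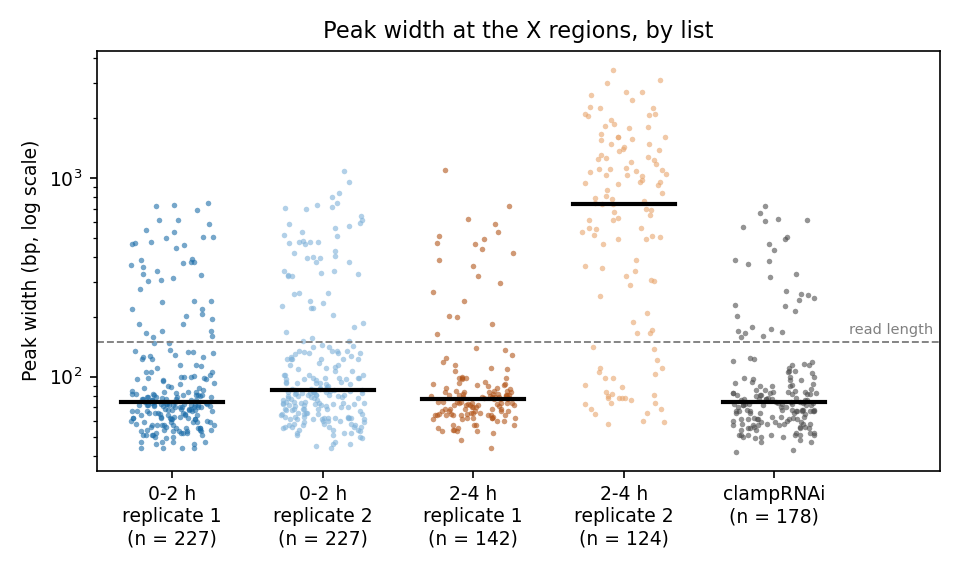
Width of the strongest peak at each X region (y axis, bp, log scale) in each list, with the number of regions called under each name; bars are medians and the dashed line is the read length of 150 bp. Peaks of 2-4 h replicate 2 have a median of 740 bp, and the other lists have medians of 74.5 to 86.0 bp.

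Merged width followed the broad list. Over all lists together the 124 regions called in 2-4 h replicate 2 spanned 779 bp in the median and the 103 others 123 bp. The widest were in CHES-1-like, a forkhead factor gene (X:7687477-7690967, 3491 bp), at the neighbours CG16781 and CG12206 (X:3463256-3466345, 3090 bp) and in CG42340 (X:6513206-6516197, 2992 bp). The CHES-1-like region held 2 separate peaks in each list except 2-4 h replicate 2. The stronger of them was 75, 94, 81 and 67 bp wide in the 2 lists of 0-2 h controls, 2-4 h replicate 1 and clampRNAi. In 2-4 h replicate 2 a single peak of 3491 bp spanned the region.

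The maxima of the peaks lay within a few bases of each other in most regions. Measured from the maximum in 0-2 h replicate 1, the median offset was 1.5 bp in 0-2 h replicate 2, 1.25 bp and 1.5 bp at 2-4 h and 1.5 bp with clampRNAi. The maximum lay within 10 bp in 220 of 227, 141 of 142, 119 of 124 and 174 of 178 regions. The broad peaks of 2-4 h replicate 2 had the same property: of its 77 peaks over 500 bp, 73 (94.8%) had their maximum within 10 bp. On the autosomal arms the share for such peaks was 83.3% of 96. Both ends of the peak lay within 10 bp of those in 0-2 h replicate 1 in 125 of 178 regions after clampRNAi, 92 of 142 in 2-4 h replicate 1 and 112 of 227 in 0-2 h replicate 2. In 2-4 h replicate 2 it was 22 of 124.

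After the maternal-to-zygotic transition, 142 of the 227 regions were called in 2-4 h replicate 1 (62.6%, Clopper-Pearson 95% interval 55.9% to 68.9%) and 124 in 2-4 h replicate 2 (54.6%, 47.9% to 61.2%). Of all 2263 merged regions these lists called 15.7% and 70.2%. Of all 602 regions in both 0-2 h controls they called 57.6% and 60.6%, and of the 265 autosomal arm regions chosen the same way 60.4% and 53.2%. The X and autosomal intervals overlapped (54.2% to 66.3% and 47.0% to 59.3% on the autosomes). Both 2-4 h controls called 110 X regions (48.5%), against 12.2% of all merged regions, 45.7% of the 602 and 45.7% of the autosomal regions. The intervals cover counting over regions only, and no test across libraries was made, since the later stage has 2 lists.

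After clampRNAi, 178 of the 227 regions were called (78.4%, 72.5% to 83.6%). The share was 21.0% of all merged regions, 76.6% of the 602 and 82.3% (77.1% to 86.7%) of the autosomal regions. The X and autosomal intervals overlapped. Of the 206 X regions in 0-2 h replicate 2 and not replicate 1, 2 were called after clampRNAi (0.971%), 0 in 2-4 h replicate 1 and 63 in 2-4 h replicate 2. The clampRNAi group has 1 list, so no difference between genotypes could be tested.

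Nearly all regions of 2-4 h replicate 1 were also called after clampRNAi, 141 of 142, while 37 of the 178 clampRNAi regions were not called in 2-4 h replicate 1. The list of 2-4 h replicate 2 overlapped the others less completely. It lacked 32 of the 142 regions of 2-4 h replicate 1 and 60 of the 178 clampRNAi regions, and of its own 124 regions 14 were missing from 2-4 h replicate 1 and 6 from clampRNAi. The autosomal arm regions were nested in much the same way. Of the 160 called in 2-4 h replicate 1, 1 was in that list alone of the 3, and 0 were in both 2-4 h lists without clampRNAi. The pattern of 2-4 h replicate 2 and clampRNAi without 2-4 h replicate 1 held 3.96% on X and 4.15% on the autosomal arms. All 3 of these lists called 109 regions (48.0%), which were thus in all 5, and the 3 lists together called 12.2% of all merged regions, 45.5% of the 602 and 45.7% of the autosomal regions. None of the 3 called 43 regions (18.9%, 14.1% to 24.7%), which were thus in the 0-2 h controls alone. Chosen the same way, the share was 14.5% of the 602 and 14% (10.0% to 18.7%) of the autosomal regions. Of all merged regions 22.4% were in none of the 3, a count that takes in regions of a single 0-2 h list. A further 32 regions were called in all lists except 2-4 h replicate 2, 14.1% on X and 14.3% on the autosomal arms. The 3 lists of 0-2 h embryos and neither 2-4 h list called 28, which is 12.3% on X, and 18.1% on the autosomal arms.

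A single X region (0.441%) was called in all 4 controls and not after clampRNAi, and 0 of the 265 autosomal arm regions were. The X region lay in Act5C, a cytoplasmic actin gene (X:5902726-5904120), in peaks of 356, 1078, 1099 and 1395 bp. Its maximum signal was 95 and 38 at 0-2 h and 49 and 27 at 2-4 h, far below the medians for these regions of 578, 651, 644 and 724 in the same lists. The peak was wider than the median for these regions in each of the 4 lists, at percentiles of 34.2, 50.5, 26.5 and 0.378. The 5 others called at 2-4 h and not after clampRNAi were called in 2-4 h replicate 2 alone of the 2-4 h lists. They lay in Rab10 and CG42541 and near Femcoat, CG43689 and CG43736.

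Regions of low rank at 0-2 h were called less often in the other lists. The regions were split into 4 groups of near equal number by total signal in 0-2 h replicate 1. Of the 57 regions of the lowest group, 1 and 5 were called in the 2-4 h lists (replicates 1 and 2) and 14 with clampRNAi. In the next group the counts were 28, 22 and 51 of 57. In the highest group all 57 were called in every list. Grouped by 0-2 h replicate 2 in place of replicate 1, the lowest group had 5, 3 and 19 of 57 called in 2-4 h replicate 1, 2-4 h replicate 2 and clampRNAi, and the highest 53, 57 and 55. The 49 regions not called after clampRNAi stood at a median of 16.0 by rank in 0-2 h replicate 1, and the 178 called at 66.6. The highest ranked of the 49 in that list, in CG44422 (X:11260334-11260390), stood at 44.3, and all 136 regions ranked above it were called after clampRNAi. Ranked by 0-2 h replicate 2, the highest of the 49 was the region in Rab10, at 99.6, with 1 region above it, and 11 of the 49 lay over the 50th percentile.

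For 2-4 h replicate 1, 123 regions ranked above every missing one by 0-2 h replicate 1 and 0 by 0-2 h replicate 2, where a missing region in rg stood at 99.8 and 33 of the 85 missing ones lay over the 50th percentile. For 2-4 h replicate 2 the numbers were 75 and 98, and the highest missing one by either ranking lay in OtopLa, a proton channel gene, at 71.5 and 68.4. The autosomal regions gave a similar order by group, from 28 of 67 called after clampRNAi in the lowest group to 66 of 66 in the highest. In the lowest group 24.6% of X regions (14.1% to 37.8%) and 41.8% of autosomal regions (29.8% to 54.5%) were called after clampRNAi. The intervals overlapped and the difference was not tested. The lowest total signal of any peak was 10424 and 5960 in the 0-2 h lists, 13050 and 18175 in the 2-4 h lists and 6840 after clampRNAi, and the part of depth or threshold in these calls was not tested.

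**Figure D4:**
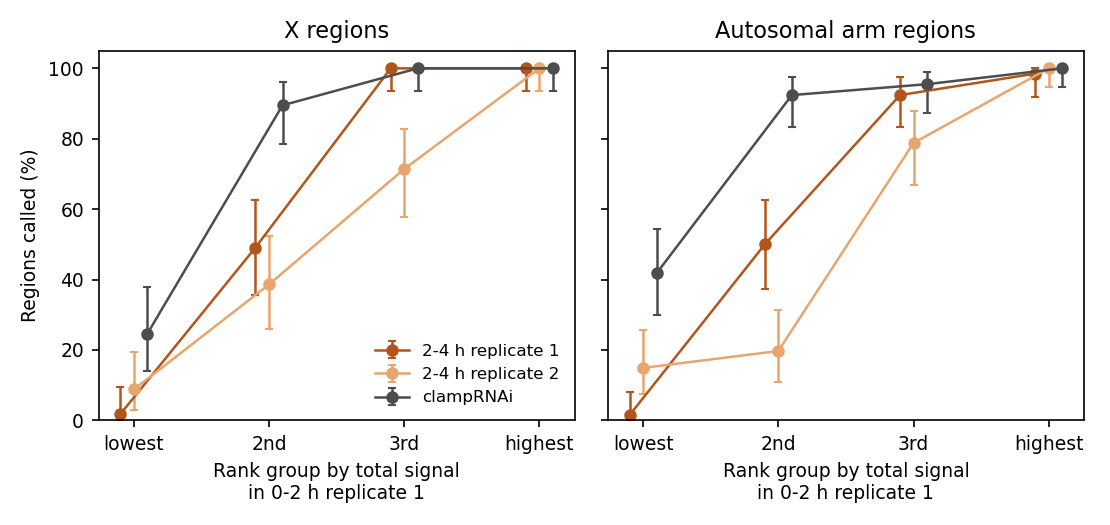
Share of regions called in each list that did not choose them (y axis, percent, with Clopper-Pearson 95% intervals over regions) by rank group of total signal in 0-2 h replicate 1 (x axis, 4 groups of near equal number), for X regions (left) and autosomal arm regions (right). On X the clampRNAi share goes from 24.6% in the lowest group to 100% in the upper pair of groups.

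Among the 43 regions called in the 0-2 h controls alone, the highest ranked lay 5378 bp from CG32718 (X:7784748-7784804), at percentiles of 31.3 and 58.3. The next lay 4742 bp from CG33669 (X:6404842-6405308), at 43.2 and 36.6, and the one after it 3344 bp from CG12691 (X:4262667-4262753), at 22.0 and 55.1. Others lay in Ten-a (X:12245035-12245509) at 20.7 and 55.9, in g, a gene of eye pigment granule transport (X:13731189-13731656), at 26.0 and 48.1, and in Mur2B outside br (X:1534217-1534277) at 27.9 and 44.2. All 6 were below the median for the X regions in both lists, 55.2 in replicate 1 and 63.7 in replicate 2.

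Ranks of the regions were closest between lists of the same replicate number and with clampRNAi for the replicates 1. As a description over the regions called in both lists of a pair, which share genome positions and mappability, Spearman's rho was 0.98 between 0-2 h and 2-4 h replicate 1 (142 regions; Pearson's r 0.97) and 0.98 between 0-2 h replicate 1 and clampRNAi (178; r 0.97). The highest value was 0.99, between 2-4 h replicate 1 and clampRNAi (141; r 0.98), lists that differ in age and genotype. Between the replicates 2 rho was 0.93 (124; r 0.86). Within an age it was lower, 0.83 between the 0-2 h controls (227; r 0.78) and 0.80 between the 2-4 h controls (110; r 0.73). The lowest values were 0.66 between 0-2 h replicate 1 and 2-4 h replicate 2 (124; r 0.54) and 0.73 between 2-4 h replicate 2 and clampRNAi (118; r 0.66). The 0-2 h controls placed 187 regions within 25 percentile points of each other, 37 higher in replicate 2 by more than that and 3 higher in replicate 1.

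At a few regions the lists differed widely in maximum signal, quoted here as the authors' values on scales of unknown depth. The median ratio of replicate 2 to replicate 1 at 0-2 h was 1.16 over the 227 regions (quartiles 0.885 and 1.44), and 6 regions lay beyond 10-fold. The region in Rab10, a small GTPase gene of vesicle traffic (X:20254189-20254748), had maxima of 157 and 96038 at 0-2 h and 118929 in 2-4 h replicate 2. It was absent from the lists of 2-4 h replicate 1 and clampRNAi. One in rg (X:5105296-5105786) had 327 and 184240 at 0-2 h, 285018 in 2-4 h replicate 2 and 145 with clampRNAi. A region 5776 bp from Femcoat (X:4235579-4236111) had 136 and 59121 at 0-2 h and 59523 in 2-4 h replicate 2. The 3 were high in the replicates 2 and low or absent in the other lists. What the replicate numbers stand for is not given in the sources used here, and whether maxima this high stand for bound MLE was not tested.

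CG42699 had the opposite order (X:5788744-5789011). Its region had maxima of 8508 and 39173 in the replicates 1 (0-2 h and 2-4 h) and 64805 with clampRNAi, and of 56 and 140 in the replicates 2. In 2-4 h replicate 1 and clampRNAi it held the highest total signal of the whole list, at a percentile of 100, and in the replicates 2 it stood at 37.7 and 49.8. The peak was 240 to 268 bp wide in all 5 lists. The others beyond 10-fold lay in Tlk, a chromatin kinase gene, and CanA-14F, a calcineurin gene, and both were higher in the replicates 2 (4707 against 399 and 4102 against 343 at 0-2 h).

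**Figure D5:**
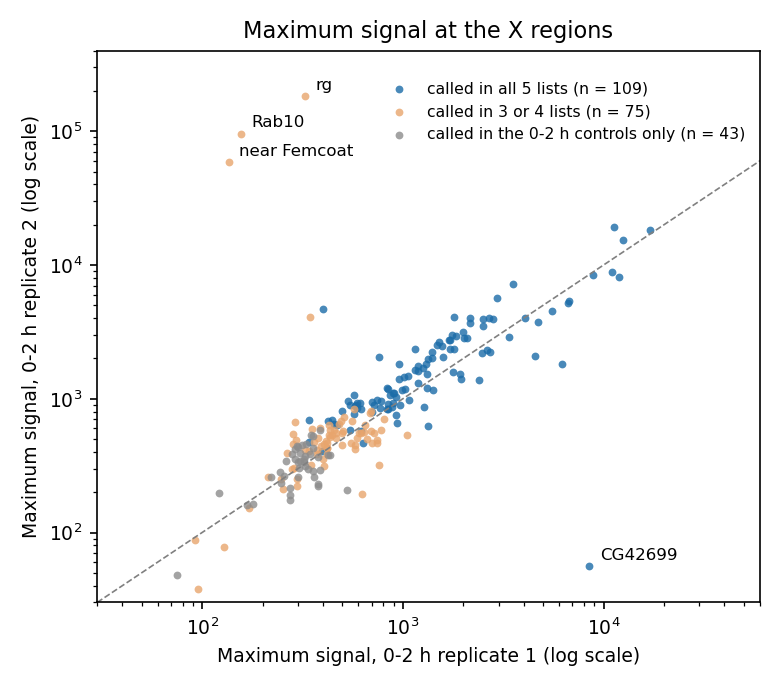
The authors' maximum signal of each X region in 0-2 h replicate 1 (x axis, log scale) and 0-2 h replicate 2 (y axis, log scale), coloured by the number of lists that called it; the dashed line marks equal values. Regions in rg and Rab10 and near Femcoat lie far above the line, CG42699 far below it, and the 43 regions called in the 0-2 h controls alone sit at the low end.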

How the data were processed

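CUT&RUN libraries against MLE were made from permeabilised whole female embryos and sequenced as paired reads of 150 bp, per the labels' protocols. Sample titles gave the groups and the replicate numbers. Per the submitters' processing notes the tools were SEACR 1.3, Bowtie2 2.4.4, Trimmomatic 0.40, deepTools and bcl2fastq 2.17 and the build dm6, with no roles stated. Each deposited list, in the layout of SEACR (a caller that works on blocks of coverage), gives the authors' total and maximum signal per peak for 1 library. Not given in the sources used here are the control track, the threshold and any spike-in scaling. Intervals cover counting over regions only, and reads counted without molecular identifiers need not come from separate molecules.

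Lists were read with Python 3.11.15, pandas 2.3.3, NumPy 2.4.6 and SciPy 1.17.1. Peaks sharing at least 1 bp were merged, checked on simulated lists. Where a list had several peaks in a region, the one of highest total signal was used. Gene extents came from a RefSeq table of Release 6 plus ISO1 MT, the assembly dm6 names. Coordinates are 1-based. Shares have Clopper-Pearson 95% intervals. Regions are not replicates, so no test was made. The planned reading of promoters was not run.

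The regions and the 6 gene lists were chosen with earlier results of these data known. List genes past the bound or on another arm were dropped: DIP-beta, run, shakB, stnA, stnB and CngA. The text names the 12 regions of highest mean percentile at 0-2 h, the 6 highest among regions called in no other list and among those called at 2-4 h and not after clampRNAi, genes with at least 3 regions (up to 8), regions in listed genes, regions at extremes of position, width or spacing, and the 4 whose 0-2 h ranks lay farthest apart. OtopLa, CG44422, Tlk, the run near CG6414, and lz, acj6, btd, gt, sc and vnd as examples were picked after their values were seen. Alternatives covered merging, peak choice, the bound, leaving out a 2-4 h list and not requiring a 0-2 h list.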

Additional observations from a re-analysis of the deposited data

How the results depend on the processing

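No paired analysis was possible because the result comes from no test: the regions are counted, and no model was fitted. Of 104 recomputed values, 72 stayed within 1.5 times the reported count, or within the interval of the reported median, and 32 did not. Requiring overlap of 50% of the shorter peak, merging peaks within 500 bp and moving the bound by 1 Mb either way changed none of them beyond that.

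Fewer peaks gave fewer regions. With the upper 50% of each list by total signal, 121 regions remained in number, of which 74 and 69 were called in the 2-4 h controls, 61 in both of them, 94 after clampRNAi and 61 in all 5 lists, with 97 in coding genes. The median gap was then 102 kb and the median width in 0-2 h replicate 2 was 94.0 bp. With every list kept to its top 370 peaks the number was 88, with 87 and 31 called in the 2-4 h controls, 30 in both, 88 after clampRNAi, 30 in all 5 and 72 in coding genes, a median gap of 157 kb and a width of 96.5 bp. At equal list length the clampRNAi share was thus 100% and that of 2-4 h replicate 2 35.2%. With peaks at least as wide as the read 23 regions were left, with 13 called in each 2-4 h control, 12 in both, 16 after clampRNAi, 10 in all 5 and 20 in coding genes, a median gap of 339 kb and widths of 366 bp and 395 bp. Each of these alternatives removes peaks by construction.

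Each 2-4 h list was left out in turn, and each 0-2 h list was in turn not required but kept in the merge. This gave 227 to 433 regions, 124 to 187 called in 2-4 h replicate 2, 184 to 353 in coding genes and a median gap of 26.5 to 45.0 kb. The high counts came when 0-2 h replicate 1 was not required. Then 0-2 h replicate 2 alone chose the regions and the clampRNAi share was 41.6%.

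Depth is unknown and each genotype by age has 1 or 2 lists, so a region missing from a list is not shown to lack MLE.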
